A study of Mus musculus with 2 samples.

Results

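The accessible chromatin of 10 mouse Fc receptor genes was described here, of 21938 protein-coding genes in the annotation. The genes were listed by name. They were Fcer2a, Fcmr, Fcrla and Fcrl1, which are B cell genes, and Fcgr1, Fcgr3, Fcgr4 and Fcer1g, which are myeloid genes. Fcgr2b, used by B cells and myeloid cells, and Fcgrt, used by many cell types, entered neither class. DNase-seq, which reads where the enzyme DNase I cuts open chromatin, had been run on the spleens of 2 male mice aged 2 months, of the F1 hybrid strain B6CASTF1/J. Each library came from its own animal, called animal 1 and animal 2 after the replicate numbers in the labels. Neither animal carried a stated treatment, and there was no second group, so values are given per animal and no test between groups was possible. The hybrid carries a genome from C57BL/6J and one from CAST/EiJ, and the reads were placed on mm10, which is the C57BL/6J sequence. Whether reads from the other genome were lost at these genes was not tested.

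Fc receptors bind the constant part of antibodies and pass the signal, or the antibody itself, into the cell. Activating Fc receptors signal through a tyrosine motif that sits in their own tail or in a partner chain, and the kinase SYK reads it. The inhibitory receptor FCGR2B carries a motif of the opposite sign, which recruits the phosphatase SHIP. In the spleen, B cells carry receptors for IgE and IgM and several Fc receptor-like proteins, while macrophages, monocytes and neutrophils carry the receptors that take up IgG-coated particles.

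A peak is a short interval that the authors called as accessible, and its height is the signal value they gave it. What the signal counts, and how it was scaled, is not stated, and it was taken to follow the density of DNase cuts. Each gene was given the peaks that overlap its body or the 20 kb on either side. A peak within 1 kb of any annotated transcription start site (TSS) of the gene was a promoter peak, and every other one was distal. In the longer deposited list, 108 of 79246 peaks in animal 1 and 87 of 77231 in animal 2 lay in these windows. Joined by overlap, they formed 113 separate sites, 17 at promoters and 96 distal, and 82 of the 113 were found in both animals. The number of cuts behind a height is not stated, so no counting error could be given.

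In these spleens each of the B cell genes carried a peak at its promoter. The myeloid genes had lower ones or none, except that in animal 2 Fcgr3 had 2.09 and the B cell gene Fcer2a 2.02. A promoter peak was listed for 8 of the 10 genes in animal 1 and for 7 in animal 2. Of all protein-coding genes, 61.4% had one in animal 1 and 62.6% in animal 2. The 7 genes with one in each animal were Fcer2a, Fcmr, Fcrla, Fcrl1, Fcgr2b, Fcgr3 and Fcer1g, against 59.8% of all protein-coding genes. All 4 B cell genes were among them, and 2 of the 4 myeloid genes. With a gene without a peak set to 0, the median promoter height of the B cell genes was 3.40 in animal 1 and 2.33 in animal 2. That of the myeloid genes was 0.347 and 0.333. In bulk tissue, fewer cells of a type and less accessibility per cell cannot be told apart.

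**Figure D1:**
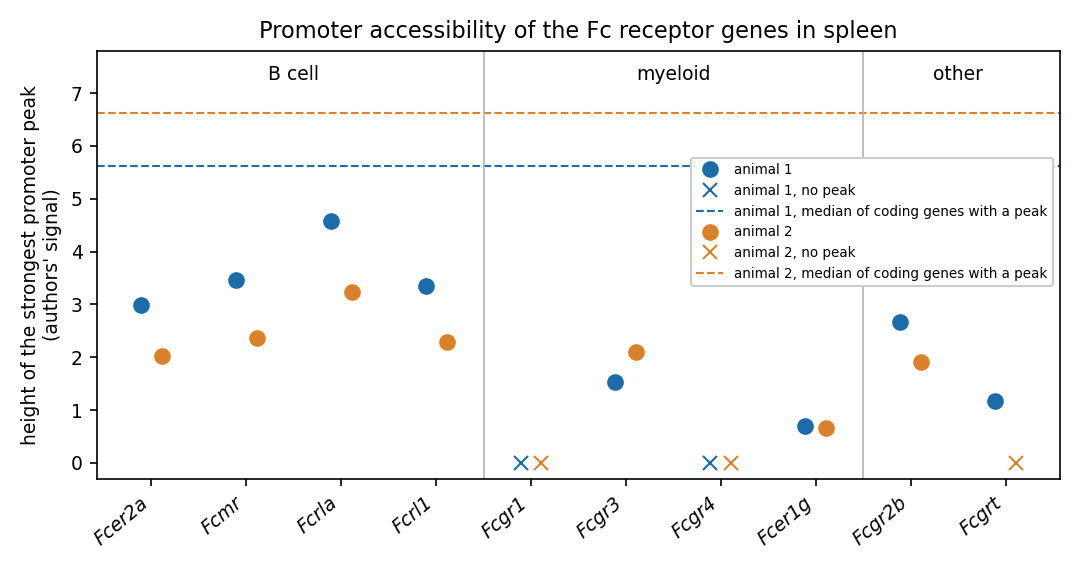
Height of the strongest promoter peak (the authors' signal) for each Fc receptor gene, 1 point per animal; crosses at 0 mark genes with no promoter peak, and dashed lines are the median over protein-coding genes that have one. The 4 B cell genes sit between 2.02 and 4.58, Fcgr1 and Fcgr4 have no peak in either animal, and every point lies under its animal's dashed line (5.62 and 6.63).

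None of the genes had a strong promoter by the measure of the whole genome. Over all protein-coding genes with a promoter peak, the median height was 5.62 in animal 1 and 6.63 in animal 2. The B cell promoters stood higher than 31.4% to 43.0% of those genes in animal 1 and than 23.0% to 30.1% in animal 2. The lowest member with a peak in both animals, Fcer1g, stood above 10.7% and 9.40%. Most of their start regions held few CpG. RefSeq promoter windows of 300 bases in mm10 were matched for all 10 symbols, and held 1 to 7 CpG against a median of 14 over 20150 windows of protein-coding genes. For Fcgr3 these windows lie at starts without a peak, and the 200 bases at its promoter peak held 14 CpG. Those at the Fcer1g peak held 12.

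The markers of the spleen's cell types give the setting. Promoter peaks were listed in both animals for 6 of 6 B cell markers and 6 of 6 T cell markers. They were listed for 3 of 6 macrophage, 0 of 6 neutrophil, 2 of 4 NK cell, 2 of 5 dendritic cell, 1 of 3 mast cell and 2 of 4 endothelial markers. The B cell markers ran from 3.08 to 13.0 in the single animals, with Pax5 the highest. The macrophage markers with a peak ran from 0.407 to 2.34, and Adgre1, which encodes F4/80, had none. Of the neutrophil markers, Csf3r alone had a peak, 0.487 in animal 1. The part of cell numbers in the difference between the B cell and myeloid receptor genes was not tested.

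Fcer2a encodes CD23, the low-affinity IgE receptor of B cells. It lies at chr8:3681737-3694175 on the minus strand. Its promoter peak was 2.99 in animal 1 and 2.02 in animal 2, averaging 2.51 ± 0.69 (SD, n = 2), centred 136 bases upstream of the most upstream start. A second group of starts inside the gene, used by 6 coding transcripts, had no peak in either animal. Within 1 kb of those starts the authors' cut-rate listing held 0 bases at a false discovery rate under 0.05. Of the starts of Fcer2a, the upstream one alone thus had a peak. The strongest peaks of its window lay at the promoters of other genes, Trappc5 with 8.87 and 10.4 and Fcor with 4.73 and 6.83. Away from such promoters the highest distal site by the mean of both animals, chr8:3670481-3670680, reached 1.48 and 1.68. A site on the other side, chr8:3711761-3712040, was higher in animal 1, with 2.23, and lower in animal 2, with 0.706.

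Fcmr, at chr1:130865669-130880791 on the plus strand, encodes the IgM receptor, TOSO. Its main start, chr1:130865521-130865900, had a height of 3.45 in animal 1 and 2.37 in animal 2, averaging 2.91 ± 0.77 (SD, n = 2). A higher site lay 1.2 kb upstream of it at chr1:130864361-130864580, with 7.71 and 6.38. That is 2.23 times the promoter height in animal 1 and 2.69 times in animal 2. The site fell outside the 1 kb limit and so counted as distal, with no other coding gene's start near it. Its lowest cut-rate FDR was 3.56e-47 in animal 1 and 4.89e-30 in animal 2. A group of late starts of 2 non-coding transcripts had its own, lower sites, at 1.68 and 1.12 and at 0.788 and 1.17. A further distal site 15 kb upstream, chr1:130850441-130850780, reached 4.0 and 3.25.

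Fcrla (chr1:170917576-170927583, minus strand), an intracellular Fc receptor-like protein of B cells, had the highest promoter peak of the 10 genes by the 1 kb rule. The rule matters here, because the higher Fcmr site 1.2 kb upstream of its start fell outside it. The strongest peak within 1 kb of a start, chr1:170928481-170928840, was 4.58 in animal 1 and 3.23 in animal 2, averaging 3.90 ± 0.95 (SD, n = 2). Its midpoint lay 1.08 kb upstream of the start, and the site over the start itself, chr1:170927441-170927760, was 2.64 and 2.79. The upstream site was thus the higher in both animals, and the start site was nearly level between them. RefSeq places the first base of Fcrla at 170932216, which is 4.63 kb further upstream than GENCODE does. A weak site overlapped that base, chr1:170932181-170932324, with 1.05 and 0.869. Its highest distal site was downstream, chr1:170901701-170901880, with 5.72 and 7.31, and an intron site, chr1:170924621-170924800, had 3.27 and 3.84.

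Fcrl1 (chr3:87376387-87402934, plus strand), an activating Fc receptor-like protein of the B cell surface, had a pair of promoter sites of similar height. The site over the start, chr3:87376261-87376540, was 3.35 in animal 1 and 2.21 in animal 2. The site in the first intron at 0.47 kb, chr3:87376741-87376980, was 2.72 and 2.29. This gene had the most sites inside its body, 7 found in both animals. The highest of them was in an intron 3734 bases after the start, chr3:87380021-87380220, with 5.73 and 4.86. Another, near the far end of the gene at chr3:87401501-87401740, had 5.23 and 3.89.

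These are the B cell promoters as the reference holds them, shown because they carried the peaks in both animals. Each is 200 bases of mm10, centred on the promoter site nearest the most upstream start, on the gene's own strand. Capitals mark bases that lay in a footprint of both animals. A footprint is a stretch of few cuts inside an open site, as the authors called it.
Fcer2a (chr8:3694211-3694410, minus): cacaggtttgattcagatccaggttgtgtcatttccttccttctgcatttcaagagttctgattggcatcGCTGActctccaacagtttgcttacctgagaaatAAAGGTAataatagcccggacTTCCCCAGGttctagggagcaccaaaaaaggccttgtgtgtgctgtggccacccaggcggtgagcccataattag
Fcmr (chr1:130865621-130865820, plus): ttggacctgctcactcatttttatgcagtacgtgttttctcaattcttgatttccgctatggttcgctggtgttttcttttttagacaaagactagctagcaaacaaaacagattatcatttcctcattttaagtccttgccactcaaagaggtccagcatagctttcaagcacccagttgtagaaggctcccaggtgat
Fcrla (chr1:170927491-170927690, minus): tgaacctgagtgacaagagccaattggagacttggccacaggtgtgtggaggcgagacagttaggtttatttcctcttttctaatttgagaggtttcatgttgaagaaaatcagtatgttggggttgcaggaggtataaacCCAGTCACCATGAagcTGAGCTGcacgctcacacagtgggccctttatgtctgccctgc
Fcrl1 (chr3:87376291-87376490, plus): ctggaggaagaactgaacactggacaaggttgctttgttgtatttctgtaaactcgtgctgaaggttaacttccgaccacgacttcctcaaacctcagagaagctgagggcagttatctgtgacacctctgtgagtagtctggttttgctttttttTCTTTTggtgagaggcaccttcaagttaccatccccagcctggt
The stretches were short and few. Fcer2a had 3 stretches with 21 bases in all, Fcrla 2 with 20 and Fcrl1 1 with 6, while no base of the Fcmr window lay in a footprint of both animals. The letters of the PU.1 motif, GAGGAAGT, stood on the other strand of the Fcrl1 window at bases 82 to 89, outside the shared footprint. They were found in 5.36% of 60657 windows of 200 bases at peaks shared by the animals. The E2A letters CAGGTG stood in the Fcrla window at bases 39 to 44, and this motif, searched as CAGCTG and CAGGTG, was in 30.8% of all windows.

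The distal sites of these genes held more bases in shared footprints, so the highest of Fcmr and Fcrla are shown in the same way.
Fcmr, 1.2 kb upstream (chr1:130864371-130864570, plus): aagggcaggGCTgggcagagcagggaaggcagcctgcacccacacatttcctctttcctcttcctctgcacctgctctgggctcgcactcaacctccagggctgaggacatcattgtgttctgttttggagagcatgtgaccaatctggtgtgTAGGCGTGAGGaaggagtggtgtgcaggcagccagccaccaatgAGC
Fcrla, downstream (chr1:170901701-170901900, minus): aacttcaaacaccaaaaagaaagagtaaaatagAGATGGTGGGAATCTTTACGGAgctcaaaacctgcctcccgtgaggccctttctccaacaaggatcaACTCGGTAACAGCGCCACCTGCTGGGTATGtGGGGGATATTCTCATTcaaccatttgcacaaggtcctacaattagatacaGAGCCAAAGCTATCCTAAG
The Fcrla site had 4 stretches with 87 bases, against 3 with 17 bases in the Fcmr site. In the Fcrla site the E2A letters, read as CACCTG on this strand at bases 116 to 121, lay wholly inside a shared footprint. In the Fcmr site the same letters, at bases 69 to 74, lay outside one. Such letters do not name the protein at a footprint, and longer motifs that contain CACCTG were not searched.

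Fcgr2b (chr1:170958617-170976547, minus strand), the inhibitory IgG receptor, had a promoter of the same order as the B cell genes. Its peak, chr1:170975941-170976200, was 2.66 in animal 1 and 1.91 in animal 2, averaging 2.28 ± 0.53 (SD, n = 2). It covered the start that RefSeq gives, at 170976071, and not the most upstream GENCODE start 476 bases away. No site in both animals was found in its introns. Its highest distal site, chr1:170939321-170939520, had 3.87 and 4.53 and lay in the windows of Fcgr2b and Fcrla alike, 37126 bases downstream of the start of the first and 11838 bases upstream of that of the second.
Fcgr2b promoter (chr1:170975971-170976170, minus): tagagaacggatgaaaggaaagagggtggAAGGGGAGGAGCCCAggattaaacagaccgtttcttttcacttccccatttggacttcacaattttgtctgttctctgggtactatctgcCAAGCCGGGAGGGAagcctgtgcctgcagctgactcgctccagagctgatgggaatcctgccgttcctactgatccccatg
The ETS-IRF letters, GGAANTGAA, were in this window on the other strand as TTCACTTCC at bases 66 to 74, between the shared footprints. They were in 3.33% of all windows.

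**Figure D2:**
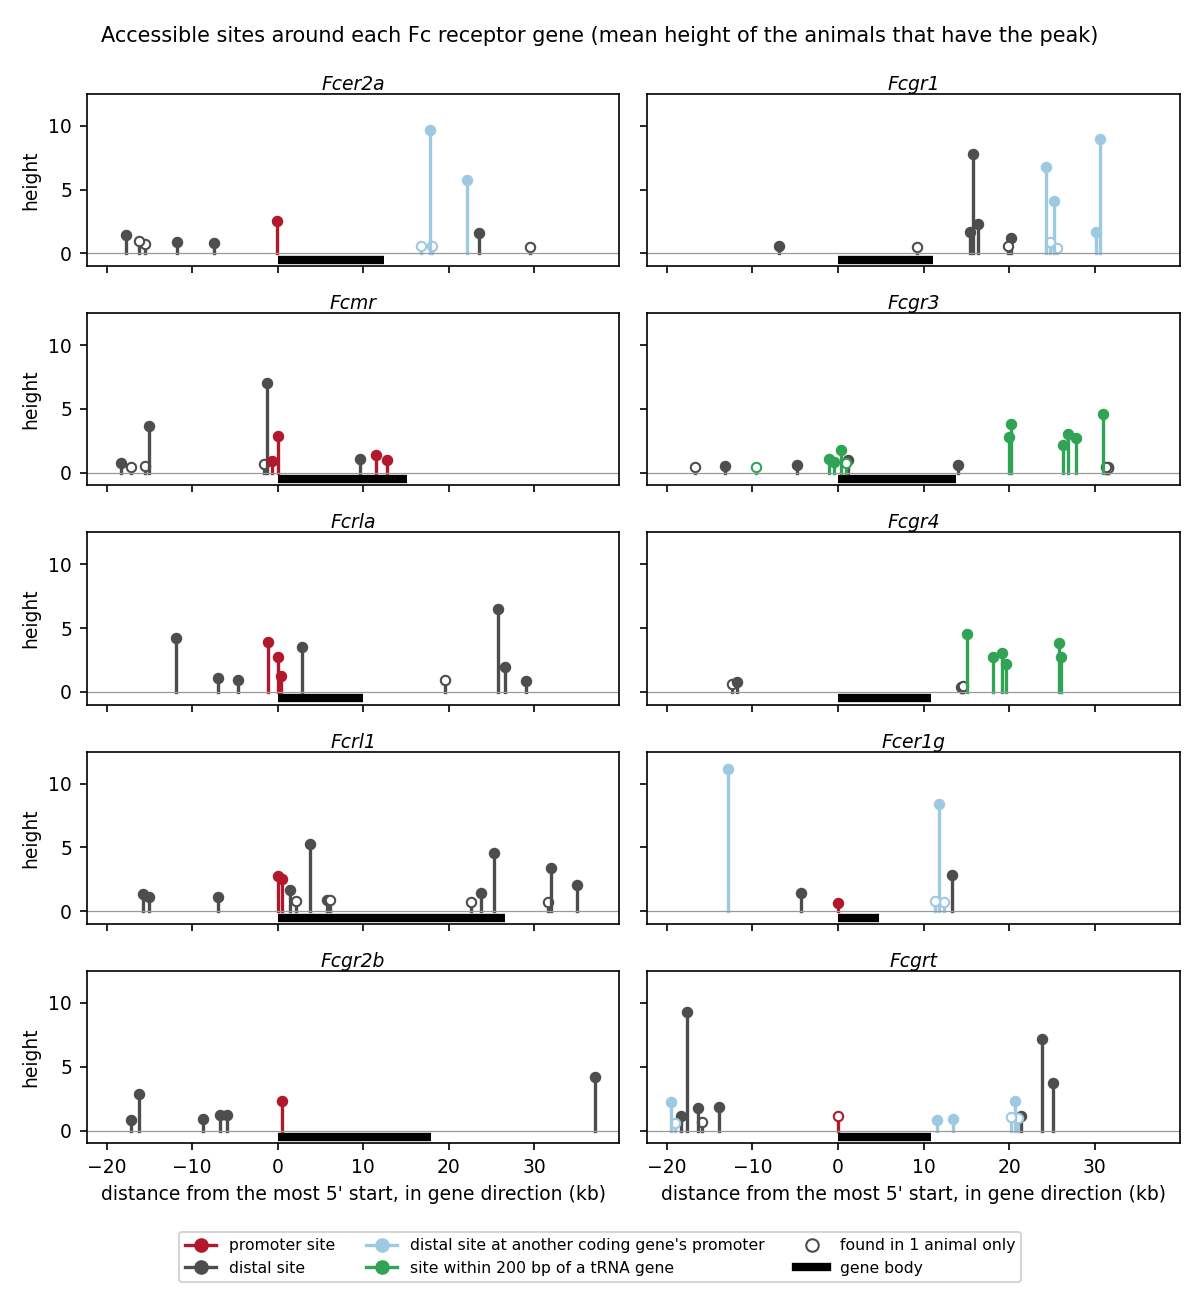
Accessible sites in the window of each gene, by distance of the site's midpoint from the most 5′ start in the direction of the gene (kb) and by mean height; colours give promoter sites, distal sites, distal sites at other coding genes' promoters and sites within 200 bp of a tRNA gene, whatever their class, and open circles are sites of 1 animal. Fcgr1 and Fcgr4 have no site at the start, and the tall sites of Fcgr3 and Fcgr4 are at tRNA genes.

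Fcgr1 (chr3:96282909-96293969, minus strand) encodes the high-affinity IgG receptor CD64, and Fcgr4 (chr1:171018920-171029761, plus strand) an activating receptor of mouse monocytes and neutrophils. Neither had a promoter peak in either animal. Within 1 kb of their starts the cut-rate listing held 0 bases at an FDR under 0.05 in both animals. The nearest site in both animals lay 6876 bases upstream of Fcgr1, with 0.544 and 0.543, and 11829 bases upstream of Fcgr4, with 0.738 and 0.794. Neither gene had a site in its body in both animals. All words of 32 bases within 100 bases of either start occurred once in the assembled chromosomes, and the sequence there is not repeated.
Fcgr1 start (chr3:96293870-96294069, minus): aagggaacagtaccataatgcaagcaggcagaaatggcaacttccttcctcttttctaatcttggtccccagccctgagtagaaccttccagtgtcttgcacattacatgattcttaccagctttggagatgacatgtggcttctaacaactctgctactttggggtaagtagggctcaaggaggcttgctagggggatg
Fcgr4 start (chr1:171018821-171019020, plus): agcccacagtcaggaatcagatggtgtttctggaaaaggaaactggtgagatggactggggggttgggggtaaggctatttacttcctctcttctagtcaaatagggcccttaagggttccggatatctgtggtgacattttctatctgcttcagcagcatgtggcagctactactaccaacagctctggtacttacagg
They are shown as counterparts of the B cell promoters that had no peak, centred on the start, and no base was in a footprint of both animals. The Fcgr4 window held the PU.1 letters at bases 82 to 89, on the same strand sense as Fcrl1. The same letters were thus present at a start with a peak and at one without.

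The windows of Fcgr1 and Fcer1g were nevertheless rich in strong peaks, and most of these belonged to neighbours. At Fcgr1 they lay at the histone genes Hist2h4, with 9.74 and 8.19, and Hist2h2bb, with 7.73 and 5.85. One strong site was at no coding promoter, chr3:96278041-96278260, 15818 bases downstream of the Fcgr1 start, with 7.41 and 8.14.

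Fcer1g (chr1:171229572-171234365, minus strand) encodes the common gamma chain, the signalling partner that FCGR1, FCGR3 and FCGR4 need. Its promoter peak, chr1:171234293-171234441, was the lowest of the genes with one in both animals, 0.695 in animal 1 and 0.665 in animal 2, averaging 0.68 ± 0.02 (SD, n = 2). The lowest cut-rate FDR there was 0.00404 and 0.0291. The peak was missing from the shorter list and from the higher 50% of peaks. The promoter of its neighbour Tomm40l was far higher, with 9.68 and 7.2. The highest distal site at no coding promoter, chr1:171220901-171221100, had 2.21 and 3.46.
Fcer1g promoter (chr1:171234246-171234445, minus): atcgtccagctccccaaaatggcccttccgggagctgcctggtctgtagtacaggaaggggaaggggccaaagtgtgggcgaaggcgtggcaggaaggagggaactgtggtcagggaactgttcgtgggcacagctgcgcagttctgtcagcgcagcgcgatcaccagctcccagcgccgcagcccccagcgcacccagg
Fcer1g distal (chr1:171220901-171221100, minus): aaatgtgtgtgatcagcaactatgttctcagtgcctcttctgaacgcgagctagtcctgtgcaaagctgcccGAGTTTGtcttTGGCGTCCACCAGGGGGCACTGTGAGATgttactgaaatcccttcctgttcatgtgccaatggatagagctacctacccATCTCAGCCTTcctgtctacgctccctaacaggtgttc
The distal site is shown because its longest shared footprint held the CTCF letters AGGGGGC, at bases 95 to 101, which were in 11.9% of all windows. No base of the promoter window lay in a footprint of both animals.

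Fcgr3 (chr1:171051174-171064935, minus strand) encodes the low-affinity activating IgG receptor CD16. It had a promoter peak by the rule, 1.54 in animal 1 and 2.09 in animal 2, averaging 1.82 ± 0.39 (SD, n = 2). That peak, chr1:171064501-171064700, belonged to a single upstream start at 171064935 with 1 coding transcript, and no base within 100 bases of that start was in the cut-rate listing. RefSeq places the Fcgr3 start further upstream, at 171065915, under the site chr1:171065881-171066040 with 0.946 and 1.24. The starts at 171059403 and 171058054 had no peak within 1 kb, and no listed cut-rate interval. The upstream start lies inside a cluster of tRNA genes, short genes that RNA polymerase III transcribes. Every promoter site of Fcgr3 was within 200 bases of a tRNA gene in the RefSeq annotation. They were tRNA genes for glutamic acid (anticodon CTC), glycine (TCC), aspartic acid (GTC) and leucine (CAG). The peak of 1.54 and 2.09 also covered the microRNA gene Mir6546. Leaving out peaks at tRNA genes left Fcgr3 with no promoter peak, and the myeloid class with 1 such gene, Fcer1g.

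The same held for the tall sites between Fcgr4 and Fcgr3. Of the 7 sites of Fcgr4 found in both animals, 6 were at tRNA genes, and the other reached 0.794. Of the 13 sites of Fcgr3 in both animals, 9 were at tRNA genes, and the other 4 reached at most 1.32. The highest was at an asparagine tRNA gene, chr1:171033901-171034080, with 4.64 and 4.52. A glycine tRNA gene (anticodon GCC) had a site beside it, chr1:171044641-171044840, with 3.37 and 4.32. The genes for glycine (TCC), aspartic acid and leucine between them had 3.40 and 2.72, 3.04 and 2.42, and 2.56 and 1.85. Over the whole genome, 215 of 403 tRNA genes (53.3%) had a peak within 200 bases in animal 1 and 207 (51.4%) in animal 2. Their median heights were 3.72 and 3.62. The 5 genes between Fcgr4 and Fcgr3 all had one, with heights from 1.85 to 4.64.

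The tRNA genes are printed because these sites lie on or beside them, and whether they account for the heights was not tested. Capitals here mark the annotated tRNA gene, and the lower case is 20 bases on each side, in mm10 on the strand of the tRNA gene.
Asparagine GTT, between Fcgr4 and Fcgr3 (chr1:171033922-171034035, minus): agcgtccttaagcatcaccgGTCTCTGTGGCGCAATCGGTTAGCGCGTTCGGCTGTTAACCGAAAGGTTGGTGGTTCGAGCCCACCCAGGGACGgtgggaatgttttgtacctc
Glycine TCC, between Fcgr4 and Fcgr3 (chr1:171037977-171038088, minus): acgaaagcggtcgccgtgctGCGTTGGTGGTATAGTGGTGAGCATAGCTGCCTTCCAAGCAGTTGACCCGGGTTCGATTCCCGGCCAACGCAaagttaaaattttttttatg
Glycine TCC, at the upstream Fcgr3 start (chr1:171064679-171064790, minus): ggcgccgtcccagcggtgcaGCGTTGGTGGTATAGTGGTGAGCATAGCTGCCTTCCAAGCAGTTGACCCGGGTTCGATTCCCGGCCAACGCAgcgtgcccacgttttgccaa
Both glycine genes were identical over 72 of 72 bases and shared 14 of 40 bases in the flanks. The aspartic acid pair was identical over 72 of 72, and the leucine pair over 82 of 83.

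Repeated sequence limited what could be read at the upstream Fcgr3 start. The window of Fcgr3 held 20 tRNA genes, 5 downstream of the gene and 15 around its upstream start and beyond. Of those 15, 2 lay inside the gene and 13 upstream of the start. They formed 3 units of 5 genes in 1 order, spaced by 7628 and 7614 bases. Of the 32-base words within 200 bases of the tRNA genes, 89.4% occurred once in the genome in the downstream cluster. In the 3 units the share was 8.80%, 7.58% and 4.70%, in order from the Fcgr3 start outward. A peak was listed at 5 of 5 downstream tRNA genes in both animals. In the first unit it was 4 of 5 in animal 1 and 3 of 5 in animal 2, in the second 1 and 0, and in the third 0 and 0. How the aligner placed reads that fit several units is not given in the sources used here, so an absent peak there cannot be told apart from reads that were dropped. By contrast, 86 of the 113 member sites consisted of unique words alone.

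**Figure D3:**
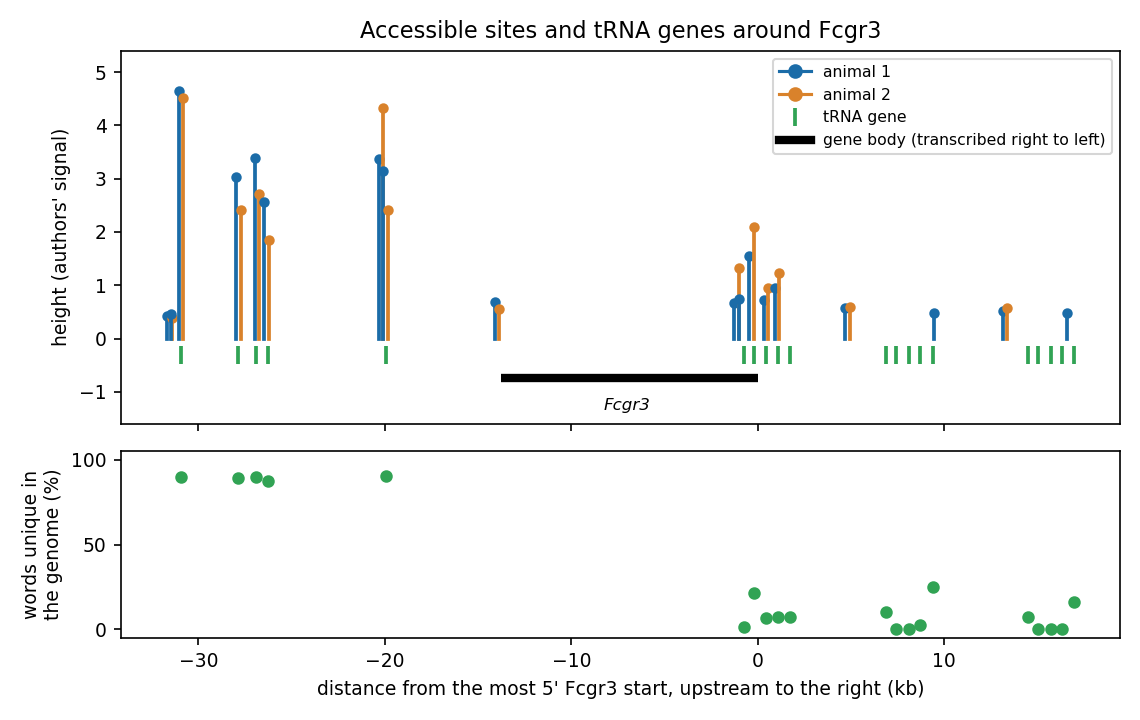
Top, height of each accessible site (1 stem per animal) around Fcgr3 by distance from its most 5′ start, with upstream to the right (kb); ticks are tRNA genes and the bar is the gene body. Bottom, share of 32-base words within 200 bases of each tRNA gene that occur once in the genome. The 5 tRNA genes to the left are 87.6% to 90.5% unique and carry sites of 1.85 to 4.64, and the 15 to the right are at 25% or less.

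Fcgrt (chr7:45092990-45103851, minus strand) encodes the neonatal Fc receptor, which recycles IgG and albumin in many cell types. Its promoter peak, chr7:45103779-45103920, was called in animal 1 alone, at 1.17, with a lowest cut-rate FDR of 0.00522. In animal 2 the listing held 35 bases there, with a lowest FDR of 0.0366, but no peak was called. This was also the highest of the 31 sites that 1 animal alone had, 26 in animal 1 and 5 in animal 2. The highest site of its window, chr7:45121401-45121720, had 8.68 and 9.88 and lay 17710 bases upstream, with the start of the microRNA gene Mir150 within 200 bases. A further distal site downstream, chr7:45079921-45080120, had 6.70 and 7.69.

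Fcrla, Fcgr2b, Fcgr4, Fcgr3 and Fcer1g lie together on chr1, in that order, over 317 kb. Their promoters were not alike along it. Fcrla and Fcgr2b had promoter peaks of 1.91 or more, Fcgr4 had none, Fcgr3 had 1.54 and 2.09, and Fcer1g had 0.695 or less.

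The classes were set side by side on a log2 scale, over the genes that had a promoter peak. The median of the B cell genes was above that of the myeloid genes by 1.72 in animal 1 and 0.98 in animal 2, averaging 1.35 ± 0.52 (SD, n = 2). In animal 1 every B cell gene was above every myeloid gene. In animal 2 the classes overlapped, with Fcgr3 at 2.09 above Fcer2a at 2.02. Without the peaks at tRNA genes the difference was 2.05 ± 0.34 (SD, n = 2), and then Fcer1g alone stood for the myeloid class. Distal peaks away from other coding promoters numbered 34 and 27 for the B cell genes and 33 and 26 for the myeloid genes. The myeloid count holds the peaks that lie in the windows of both Fcgr3 and Fcgr4 once for each gene, and 9 sites were so shared. As separate sites there were 36 for the B cell genes, 25 of them in both animals, and 26 for the myeloid genes, 18 of them in both.

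The strongest promoter peaks of the B cell genes were lower in animal 2, against the trend of the genome. The log2 ratio of animal 2 to animal 1 was -0.57 for Fcer2a, -0.54 for Fcmr, -0.54 for Fcrl1 and -0.50 for Fcrla. It was -0.48 for Fcgr2b, which is in neither class. For Fcrl1 the strongest peak was the start site in animal 1 and the intron site in animal 2, and site by site the ratios were -0.60 and -0.25. Over 13116 protein-coding genes with a promoter peak in both animals the median ratio was 0.27, with an SD across genes of 0.29. That background was not matched by height, and most of its genes had higher promoter peaks than these 5. Between 0.961% and 1.45% of those genes had a lower ratio than these 5. The Fcrla site over the start was no part of this, with 2.64 and 2.79. Fcgr3 went the other way, at 0.44, and Fcer1g was nearly level at -0.06. Over the 25 distal sites of the B cell genes found in both animals and away from other coding promoters, the median ratio was -0.10, and 14 were higher in animal 1. The B cell markers were mixed: Pax5 and Cd22 were higher in animal 2, and Ms4a1, Cd79a and Cd79b in animal 1. With 1 library per animal, a difference between animals cannot be told apart from one between libraries.

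**Figure D4:**
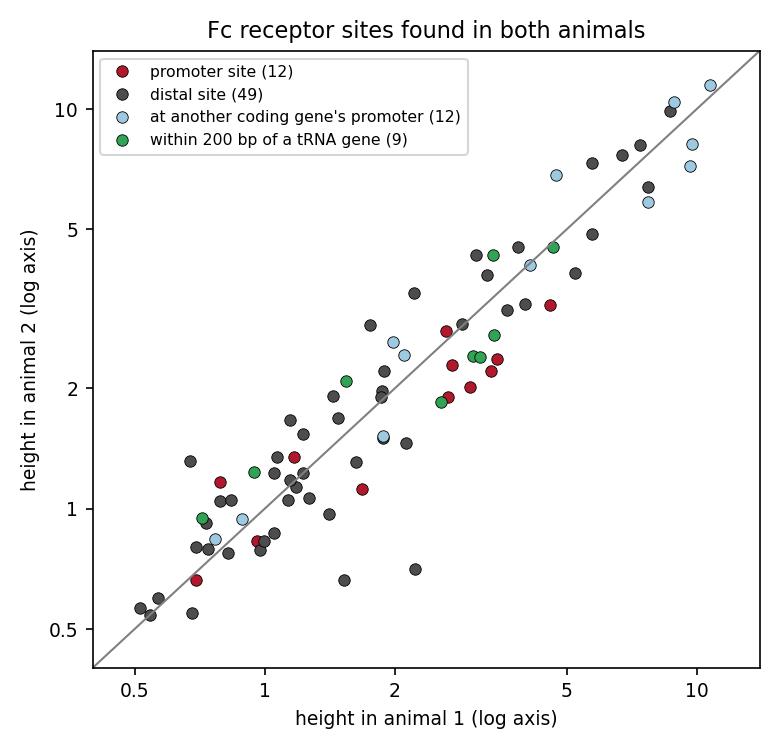
Height in animal 1 (horizontal, log axis) and in animal 2 (vertical, log axis; the authors' signal) for the 82 sites found in both animals, by kind, with the line of equal height. Most points lie near the line from 0.5 to over 10; 9 of 15 promoter sites, tRNA sites included, lie below it and 37 of 67 distal sites above.

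Most peaks at the Fc receptor genes were found in both animals. Of them, 75.9% in animal 1 overlapped a peak of animal 2, against 76.5% of all peaks. In the other direction it was 94.3%, against 79% of all peaks. The shorter list held 63.0% of the member peaks in animal 1 and 72.4% in animal 2, against 68.5% and 66.9% of all peaks. The peaks held 269 footprints in animal 1 and 226 in animal 2, or 2.49 and 2.60 per peak, against 2.28 and 2.35 over all peaks.

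Motif letters were searched on both strands in windows of 200 bases at the 82 shared member sites, for 19 motifs, and are set beside the share of all windows. PU.1 letters were in 6.10% against 5.36%, E2A letters in 31.7% against 30.8%, and CTCF letters in 11.0% against 11.9%. The GC box, GGGCGG, was in 20.7% against 25.7%. Among windows away from other coding promoters it was in 1 of 35 at the B cell genes and in 5 of 22 at the myeloid genes. Over the whole genome it was in 50.4% of windows at coding promoters and in 11.1% of the others. The myeloid windows include 9 sites at tRNA genes, and this contrast is for 1 motif picked from 19. In footprints widened by 5 bases there were 56 matches over 269 footprints in animal 1 and 53 over 226 in animal 2. Their total over all footprints was not taken. The GC box was in 4.833% against 8.522% of all footprints in animal 1, and in 7.08% against 9.001% in animal 2. E2A letters were in 3.717% against 3.511% and in 3.097% against 3.977%. CTCF letters were in 2.974% against 3.064% and in 4.867% against 3.513%. PU.1 letters were in 0.3717% against 0.522% and in 1.327% against 0.3467%. Of these, the GC box alone was lower in both animals. Among the rest of the 19 motifs, ETS, RUNX, NF-kB, MEF2, NF-Y, MITF/TFE and NRF1 letters were also lower in both. EBF1, C/EBP and GATA letters were higher in both. RUNX letters were in 0.7435% against 2.247% in animal 1 and in 0% against 2.052% in animal 2.

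Other Fc receptor family genes were mostly without a promoter peak, and the genes that act after the receptors had one. Of 9 other family members, a promoter peak was listed for 3 in animal 1 and for 2 in animal 2. Trim21, a cytosolic antibody receptor, had 9.30 and 8.20, Fcrls had 0.344 and 0.441, and Fcrl5 had 0.845 in animal 1. None was listed for Fcrl6, Fcrlb, Fcamr, Pigr, Fcer1a or Ms4a2, and Fcer1a and Ms4a2 encode IgE receptor chains of mast cells and basophils. In contrast, a promoter peak was listed in each animal for all 11 activating signalling genes, with Vav1 at 8.62 and 8.39 and Blnk at 8.05 and 8.24. So had all 5 inhibitory signalling genes. The phosphatase gene Ptpn6 had 10.5 and 10.7, and the kinase gene Csk had 8.64 and 11.0. All 5 partner genes had one too, led by Adam10, the protease that sheds CD23, with 14.9 and 18.4, and by Cr2, with 11.98 and 12.85. Not all were high: Lcp2 had 0.573 and 0.543, Btk 0.981 and 0.808, and Gab2 0.967 and 1.33. Among the partners, Itgam had 1.18 and 0.855 and Itgax 1.03 and 0.883. Over all protein-coding genes, the share with a promoter peak in both animals was 59.8%. Many of these signalling and partner genes act in other cell types as well.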

How the data were processed

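DNase-seq had been run on 1 spleen library from each of 2 mice, and all values were taken per library. Per the deposited file listings, the reads were placed on mm10 and peaks, footprints and cut-rate intervals were made from each library alone. No label or header used here names the aligner, the callers or their thresholds. The authors deposited peak heights as a signal, whose scale is not stated, in 2 lists per library, and the longer list was used as deposited. The authors' cut-rate listing gives an FDR, a q-value, per interval and holds only intervals under 0.05. The footprint files hold the constant 0.01 in that column and were used for positions only.

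Genes and starts came from GENCODE M21, and tRNA and microRNA genes from RefSeq (GRCm38.p6). All peaks of the longer lists and all footprints fit within its chromosomes. Overlaps, heights and motif matches were computed in Python 3.11.15 with numpy 2.4.6, pandas 2.3.3 and pysam 0.24.0, and the promoter step was tested on simulated data, where 200 of 200 planted peaks were found among 21938 genes. Sites are peaks of both animals joined by overlap of 1 base or more. A site was at a tRNA gene when within 200 bases of one. Some neighbouring and marker genes are not reported here. All 10 genes are named, each with its strongest promoter site and highest distal site. The members, lists and motifs were chosen with earlier results of these data known, and the tRNA comparison after the data were seen. With 2 animals of 1 group no test was run, and mean ± SD describes these animals only. Alternatives were the shorter list, the higher peaks, other promoter and window sizes, peaks without neighbours' promoters, scaled heights, other footprint rules and each animal on its own.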

Additional observations from a re-analysis of the deposited data

How the results depend on the processing

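Of 100 recomputed summary values, 78 moved by less than 1 SD of the 2 animals or, for counts, stayed within 1.5 times. Direction was checked for the log2 class difference only, which kept its sign. Counts aside, each animal on its own lies within 1 SD of the mean by construction. Dividing heights by a library median cannot change a log2 difference. The 4 B cell genes kept their promoter peak under every alternative tried. In the shorter list or among the higher 50% of peaks, Fcer1g lost its promoter peak. The 1 myeloid gene left was Fcgr3, whose promoter peaks are at tRNA genes, and the median myeloid promoter height was 0. The log2 class difference leaves out genes without a peak. It went from 1.35 to 0.65 and then set the B cell genes against Fcgr3 alone. Without peaks at tRNA genes, an alternative added after the data were seen, Fcgr3 lost its peak, 1 myeloid gene was left, the myeloid median was 0 and the difference was 2.05. Heights divided by the library median gave a myeloid median of 0.354 and a median highest distal peak of 7.04, against 6.78 as deposited. That distal value was 4.94 with 10 kb windows, 7.6 with 50 kb and 4.94 without peaks at neighbours' promoters. Windows of 10 kb gave 63.5 peaks, 47.5 distal peaks and 159.5 footprints per animal, and windows of 50 kb gave 151.5, 135.5 and 403.5, against 97.5, 81.5 and 247.5. Among the higher 50% of peaks there were 54 distal peaks. Unwidened footprints gave 25.5 motif matches, against 54.5. For single genes' highest distal peaks, 32 of 50 values moved by less than 1 SD. Each animal on its own gave 7 to 8 genes with a promoter peak, 4 B cell and 2 myeloid genes, B cell medians of 2.33 to 3.40, myeloid medians of 0.333 to 0.347 and differences of 0.98 to 1.72. It gave 87 to 108 peaks, 15 to 17 of them at promoters and 72 to 91 distal, and 226 to 269 footprints. No paired analysis was possible because there is 1 group.

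With 2 libraries an SD rests on 1 difference. A height has no stated depth, so a gene without a peak is one where none was called, not one shown to be closed. Peaks are named by distance and need not act on the gene they are listed with. Repeated tRNA units limit what can be read upstream of Fcgr3.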
